A study of Rattus norvegicus with 16 samples.

Results

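Astrocyte genes were followed through 10 members in the rat hippocampus after experimental traumatic brain injury. These were the intermediate filament genes Gfap, Vim and Nes, the hyaluronan receptor gene Cd44, 5 genes of the resting astrocyte (Aqp4, S100b, Aldh1l1, Gja1 and Glul) and the radial glia gene Fabp7. A probe belonged to a member when the gene name given by the scanner output was one of these symbols, which selected 17 of the 30367 probes of the array and 10 of its 26583 distinct gene names. Of these probes, 16 were bright enough to be tested. All 10 genes had at least 1 tested probe.

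Each of 16 arrays held RNA from the whole hippocampus of 1 adult male Sprague-Dawley rat, taken 24 h after injury or its equivalent. The 3 Naive rats had no injury, surgery or drug, and the 2 Sham rats were anaesthetised and prepared for injury without receiving it. The 3 TBI rats received a severe fluid percussion injury with no drug. Injured rats were also given PMI by oral gavage (TBI+PMI, 3 rats), JM6, a compound studied as an inhibitor of kynurenine 3-monooxygenase, by oral gavage (TBI+JM6, 3 rats) or 17β-estradiol (TBI+E33, 2 rats). The labels describe the estradiol injection as subcutaneous and the methods as intraperitoneal. The methods state 3 rats per group, and 2 Sham and 2 TBI+E33 rats were analysed here.

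Astrocytes take up glutamate and potassium, buffer water at the blood vessel wall and are coupled to one another by gap junctions. After injury they become reactive, and this gliosis is recognised by more glial fibrillary acidic protein, by the return of the developmental filaments vimentin and nestin, and by surface CD44. Cytokines that signal through STAT3 are among the best known inducers of Gfap. The hippocampus is also rich in neurons, microglia and oligodendrocytes, and vimentin, nestin and CD44 are made by vascular cells or leukocytes as well. In whole tissue, fewer cells of a type and less RNA per cell cannot be told apart.

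The arrays lay on 4 slides and had been scanned in 2 sessions. Naive 1 and 2 shared a slide with Sham 1 and 2, and Naive 3 shared a slide with the 3 TBI arrays. All 8 arrays of drug-treated rats lay on the other 2 slides and were scanned in the other session. There, 20259 to 24984 probes were well above background, compared with 16282 to 18245 on the 8 Naive, Sham and TBI arrays. Drug treatment and session therefore cannot be told apart in any comparison with TBI. Choroid plexus markers stood apart on 3 arrays, with a summed level of 77.0 on Naive 2, 121 on Sham 1 and 152 on TBI+PMI 1, where a level is the intensity divided by the 75th percentile of the array. The neuronal markers Snap25, Map2 and Slc17a7 and the astrocyte markers Aldoc, Slc1a2, Slc1a3 and Sox9 were well above background on all 16 arrays, while the neuronal marker Rbfox3 was so on 7.

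Sequences are shown for the probes whose place in a transcript matters to the results. Agilent probes are 60 bases long, and positions are those of rat build rn4 as given by the scanner output. Vim had a single probe, at chr17:87851390-87851449 on the plus strand, and it is printed because every vimentin value below rests on it. Cd44 had 4 probes along the minus strand of chr3, and the 3 upstream ones are printed because they were near background on most uninjured arrays and differed from the bright probe in behaviour. In order along the transcript, these are A_64_P130999 at chr3:88055398-88055457, A_64_P130995 at chr3:88052458-88052517 and A_64_P280765 at chr3:88041645-88041704.
Vim A_42_P509365: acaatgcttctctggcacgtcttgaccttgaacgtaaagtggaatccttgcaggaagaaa
Cd44 A_64_P130999: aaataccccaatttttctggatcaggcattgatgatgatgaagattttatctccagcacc
Cd44 A_64_P130995: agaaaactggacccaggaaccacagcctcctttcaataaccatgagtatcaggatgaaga
Cd44 A_64_P280765: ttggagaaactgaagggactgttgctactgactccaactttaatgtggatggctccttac
The bright Cd44 probe, A_64_P080817, lay furthest along the transcript at chr3:88023005-88023064.

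The Gfap promoter is shown because Gfap and Stat3, which encodes a factor of the STAT family, were both measured here. Factors of that family bind palindromes that begin with TTC and end with GAA. The 250 bases before the RefSeq start of Gfap (build GRCr8, chr10:88361662-88361911, minus strand) were searched separately for TTCNNNGAA and TTCNNNNGAA, on both strands. The capitals mark the only match, to TTCNNNNGAA, whose first base lay 196 bases before the start. TTCNNNGAA had no match in this window, and whether STAT3 binds the marked stretch was not tested.
Gfap promoter: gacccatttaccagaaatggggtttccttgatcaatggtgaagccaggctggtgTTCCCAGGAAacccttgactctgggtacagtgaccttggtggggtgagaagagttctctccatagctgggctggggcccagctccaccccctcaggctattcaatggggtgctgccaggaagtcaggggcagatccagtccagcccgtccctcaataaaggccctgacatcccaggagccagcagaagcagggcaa
TTCNNNNGAA was present in 2093 of 33469 rat promoter windows of the same length (6.25%) and TTCNNNGAA in 2566 (7.67%). Among the members' windows in RefSeq, none other than that of Gfap held TTCNNNNGAA and none held TTCNNNGAA.

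Signals below are log2 intensities, scaled within each array so that 0 marks the 75th percentile of what was well above background there, and a difference of 1 is a 2-fold change. A gene with several probes is given by its brightest. Tests are from 1 limma model over all 16 arrays. A call means that the p, adjusted by the Benjamini-Hochberg method over the 22827 tested probes, was under 0.05.

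Nes and Cd44 were higher in TBI than in Sham rats, which shared no slide. Gfap, Vim, Nes and Cd44 were higher and Aldh1l1 was lower in TBI than in Naive rats. The Nes, Vim and Aldh1l1 calls were each lost when certain single arrays were left out. Gfap was higher in Sham than in Naive rats, a call that was lost without Sham 1. In TBI against Sham, 2 of the 10 members were called, both higher, beside 9.41% of all tested probes. In TBI against Naive, 5 were called, 4 higher and 1 lower, beside 4.71% of all probes (2.98% higher and 1.73% lower). In Sham against Naive, 1 was called, beside 8.08% of all probes. The arrays of the groups did not overlap for 6 members in TBI against Sham (41.6% of probes bright enough to compare), for 7 in TBI against Naive (23%) and for 2 in Sham against Naive (39%). The members' median log2 fold change was 0.58 in TBI against Sham, 0.51 in TBI against Naive and 0.10 in Sham against Naive, where the medians over all probes were -0.03, 0.04 and 0.06.

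**Figure D1:**
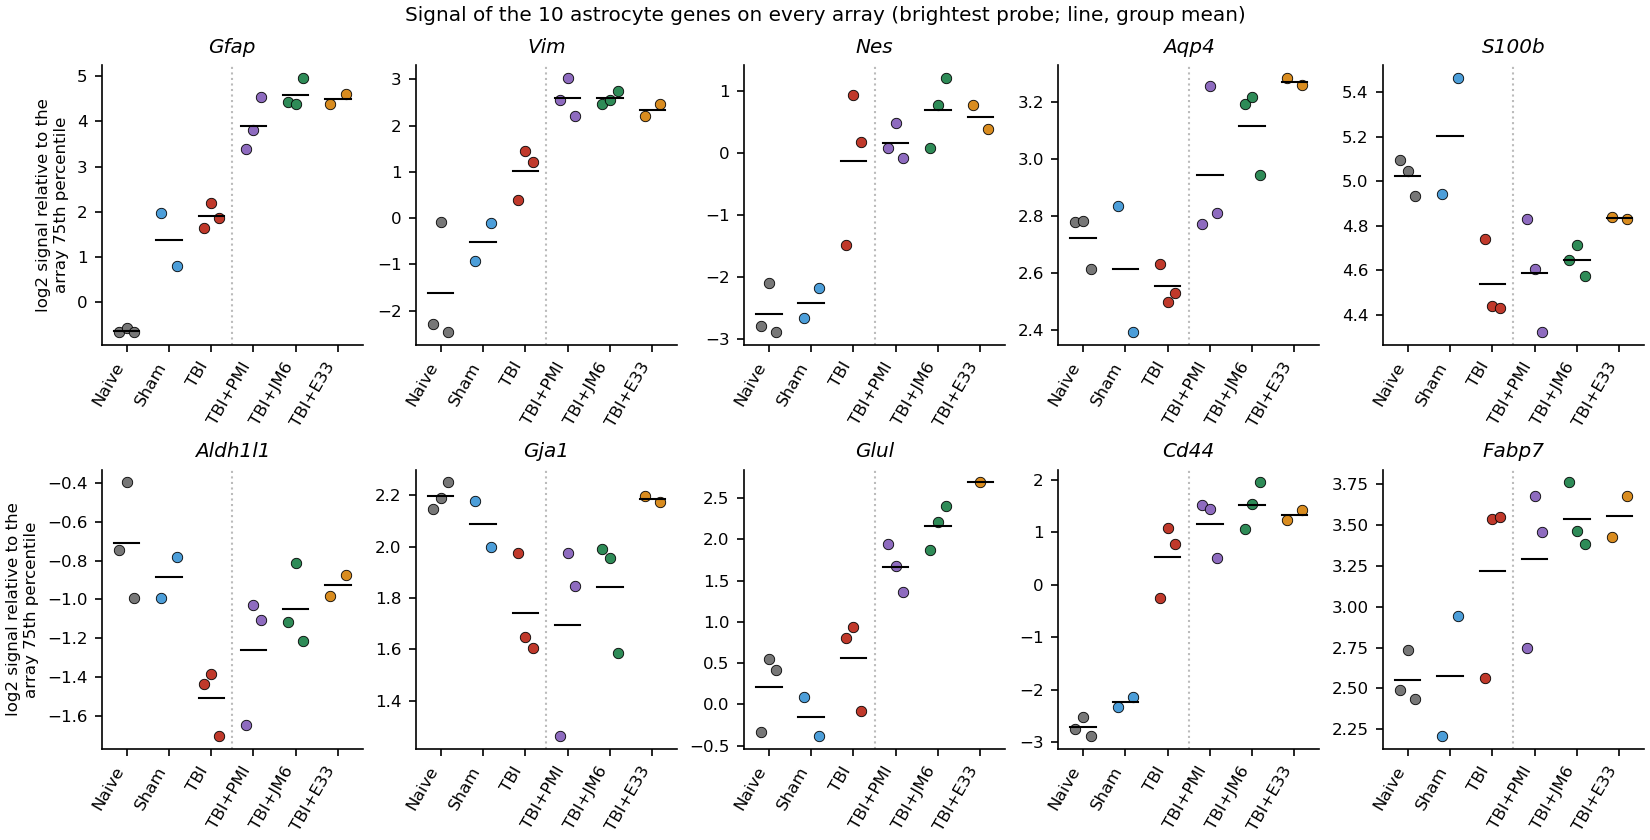
Log2 signal of the brightest probe of each of the 10 members on all 16 arrays, by group, with 1 point per rat; each panel has its own vertical range and the dotted line separates the 2 scanning sessions. Gfap lay at -0.66 to -0.57 in Naive rats and at 0.80 or above on all other arrays, while Cd44 lay at -2.14 or below in Naive and Sham rats and at -0.26 or above on all arrays of injured rats.

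Gfap encodes the main intermediate filament protein of astrocytes. Its log2 signals were -0.66, -0.57 and -0.66 in the Naive rats, 1.97 and 0.80 in the Sham rats, and 1.64, 2.20 and 1.87 in the TBI rats. The Naive arrays were tightly grouped and lay below all Sham and TBI arrays, whereas Sham 1 lay within the TBI range. Gfap was 5.79-fold higher in TBI than in Naive rats (log2 fold change 2.53, SE 0.32, limma adjusted p = 0.00272). Sham rats were 4.04-fold above Naive (2.02, SE 0.36, adjusted p = 0.00771), and the difference within the slide that held both groups was 2.0. That call was lost without Sham 1, the higher of the Sham arrays, and without the 3 arrays of high choroid plexus signal. TBI exceeded Sham by 0.52 (SE 0.36, adjusted p = 0.392), so the added effect of the injury over surgery was not separable from the spread between these rats. Sham 1 carried choroid plexus signal. Without that array the difference was 1.43 (adjusted p = 0.0675), and without all 3 arrays of high choroid plexus signal it was 1.46 (adjusted p = 0.0795). Every comparison with Sham 1 or Sham 2 left out, for any gene, sets 1 Sham array against the others and assumes that it varies like the other groups. The single Gfap probe lay at chr10:92060835-92060894 (rn4, minus strand).

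Vim encodes vimentin, a filament of immature and reactive astrocytes that vascular and immune cells also make. Its log2 signals were -2.29, -0.09 and -2.47 in the Naive rats, -0.92 and -0.10 in the Sham rats, and 0.39, 1.45 and 1.21 in the TBI rats. All TBI arrays lay above all uninjured ones, and Naive 2 stood more than 2 log2 units above the other Naive arrays. Naive 2 also had the highest summed level of fibroblast and meningeal markers, 6.63. Vim was higher in TBI than in Naive rats by 2.63 (SE 0.52, adjusted p = 0.0167), and it exceeded Sham by 1.52 (SE 0.58, adjusted p = 0.115). The call against Naive was lost when Naive 1 (2.3, adjusted p = 0.071), Naive 3 (2.21, adjusted p = 0.0501), TBI 2 (2.42, adjusted p = 0.0611) or TBI 3 (2.54, adjusted p = 0.0647) was left out. In Sham against Naive the difference was 1.11 (adjusted p = 0.283), and it became 1.87 (adjusted p = 0.0171) without Naive 2 and 2.28 (adjusted p = 0.0395) without the 3 arrays of high choroid plexus signal. The part of these markers in the Vim values was not tested.

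Nes encodes nestin, the filament of neural stem cells, which also appears in reactive astrocytes and in growing vessels. Its log2 signals were -2.78, -2.09 and -2.89 in the Naive rats, -2.65 and -2.17 in the Sham rats, and -1.48, 0.93 and 0.17 in the TBI rats. The Sham arrays lay within the Naive range, and the TBI arrays spread over more than 2 log2 units above it. Nes was 4.87-fold higher in TBI than in Sham (log2 fold change 2.28, SE 0.55, adjusted p = 0.0257) and higher than in Naive rats by 2.46 (SE 0.49, adjusted p = 0.0183). The second Nes probe, less bright, gave 1.78 (adjusted p = 0.0922) against Sham and 2.53 (adjusted p = 0.0256) against Naive. The call against Sham was lost when Sham 1 (2.04, adjusted p = 0.14), Sham 2 (2.53, adjusted p = 0.0833), TBI 2 (1.76, adjusted p = 0.0783) or TBI 3 (2.13, adjusted p = 0.0857) was left out. That against Naive was lost without Naive 1 (2.36), Naive 3 (2.31), TBI 2 (1.93) or TBI 3 (2.31), with adjusted p from 0.0518 to 0.0713.

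Cd44 encodes a hyaluronan receptor of reactive astrocytes and of most leukocytes. It was the member with the largest difference between TBI rats and each control group. Its log2 signals were -2.74, -2.52 and -2.89 in the Naive rats, -2.33 and -2.14 in the Sham rats, and -0.26, 1.08 and 0.77 in the TBI rats. No uninjured array came near the TBI arrays. Cd44 was 6.80-fold higher in TBI than in Sham (2.77, SE 0.39, adjusted p = 0.00509) and 9.52-fold higher than in Naive rats (3.25, SE 0.35, adjusted p = 0.00177). The call against Sham was kept when any one Sham or TBI array was left out, and the difference without the 3 arrays of high choroid plexus signal was 2.67 (adjusted p = 0.0584). The upstream probe A_64_P280765 was well above background on none of the Naive and Sham arrays, on 1 of 3 TBI arrays and on 1 of 3 TBI+PMI, 3 of 3 TBI+JM6 and 2 of 2 TBI+E33 arrays.

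**Figure D2:**
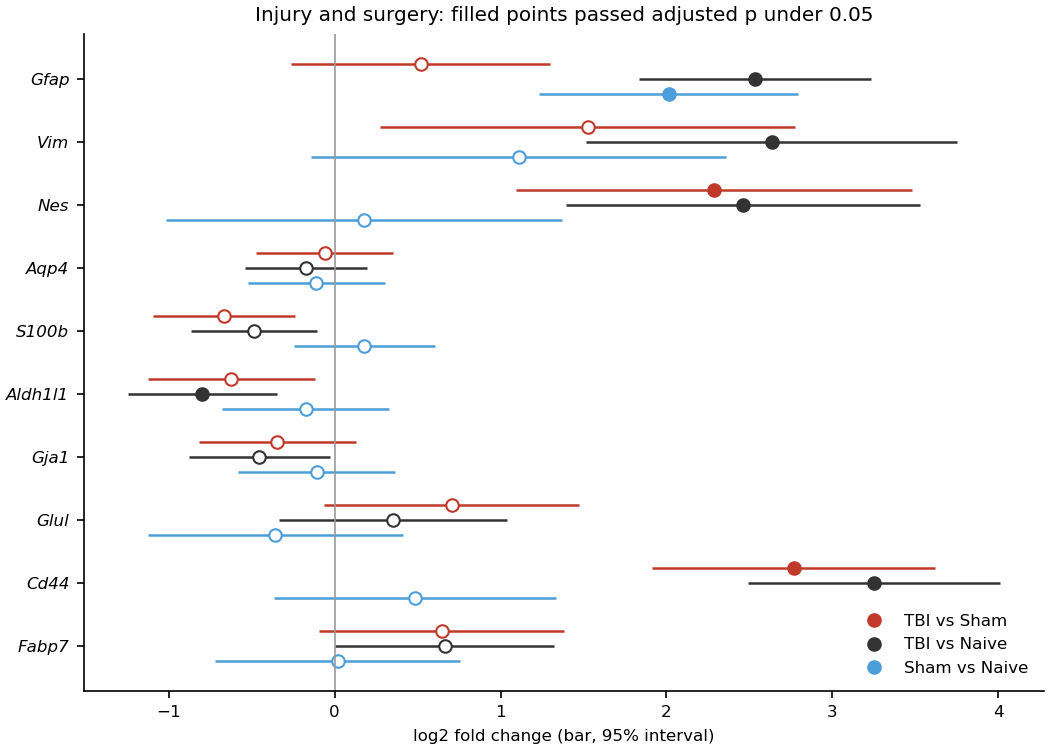
Log2 fold change of the brightest probe of each of the 10 members in TBI against Sham, TBI against Naive and Sham against Naive. Bars are 95% intervals, and points are filled where the limma adjusted p was under 0.05. Cd44 and Nes were called against both control groups, Gfap was called against Naive for both TBI and Sham, and the resting-astrocyte genes lay within 1 log2 unit of 0.

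Of the genes of the resting astrocyte, Aldh1l1 was the one called after injury. Aldh1l1, the folate enzyme used as a general astrocyte marker, had log2 signals of -0.75, -0.40 and -0.99 in the Naive rats, -0.99 and -0.78 in the Sham rats, and -1.44, -1.38 and -1.71 in the TBI rats. The TBI arrays lay below all uninjured ones. Aldh1l1 was lower in TBI than in Naive rats by -0.80 (SE 0.21, adjusted p = 0.0475), a call lost when any one of 5 arrays was left out, Naive 1 (-0.81, adjusted p = 0.124), Naive 2 (-0.64, adjusted p = 0.137) and each TBI array (-0.86 to -0.70, adjusted p = 0.0502 to 0.162). Against Sham the difference was -0.62 (adjusted p = 0.11).

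S100b encodes a calcium-binding protein that astrocytes secrete. Its brighter probe read 5.10, 5.05 and 4.93 in the Naive rats, 4.94 and 5.46 in the Sham rats, and 4.74, 4.44 and 4.43 in the TBI rats. The TBI arrays were the lowest, and the difference from Sham was -0.67 (SE 0.20, adjusted p = 0.0514), or -0.77 without TBI 1 (adjusted p = 0.0253). The other S100b probe lay nearby on the same strand and was far dimmer, with mean log2 signals of -5.33 in Sham and -4.36 in TBI rats. It gave 0.97 (adjusted p = 0.307), so the probes of this gene differed in direction, the dim probe without a call.

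Gja1, which encodes the gap junction protein connexin 43, read 2.15, 2.19 and 2.25 in the Naive rats, 2.18 and 2.0 in the Sham rats, and 1.98, 1.65 and 1.60 in the TBI rats. The TBI arrays again lay lowest, by -0.35 against Sham (adjusted p = 0.344) and -0.45 against Naive (adjusted p = 0.207). The brightest probe of Aqp4, the water channel of astrocyte endfeet, lay between 2.39 and 2.83 on all 8 of these arrays. It differed by -0.06 between TBI and Sham (adjusted p = 0.872). Of the dimmer Aqp4 probes, A_64_P018751 had mean log2 signals of -2.61 in Naive, -2.09 in Sham and -2.16 in TBI rats. Those of A_64_P036063 were -3.23, -2.45 and -3.03. Glul, which encodes the glutamine synthetase of the glutamate cycle, ranged from -0.39 to 0.94 over the 8 arrays, and the groups overlapped (0.71 in TBI against Sham, adjusted p = 0.23).

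Fabp7, the brain lipid-binding protein of radial glia, read 2.49, 2.73 and 2.43 in the Naive rats, 2.21 and 2.94 in the Sham rats, and 2.57, 3.54 and 3.55 in the TBI rats. TBI 1 lay among the uninjured arrays and the other 2 TBI arrays above them. The difference of 0.64 from Sham did not pass the test (adjusted p = 0.254), and without TBI 1 it was 0.97 (adjusted p = 0.0491).

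Markers of other cells moved in the same comparison. Of 7 leukocyte genes tested, 3 were higher in TBI than in Sham, S100a8, S100a9 and Itgal, and the summed level of the list was 0.69 to 0.96 in Naive, 1.22 to 1.65 in Sham and 1.65 to 7.52 in TBI rats, with Mpo below background on all 16 arrays. TBI 2, the array with the highest Gfap, Vim, Nes and Cd44 of its group, had the highest leukocyte level. Of 8 microglial genes, Cd68 (2.68) and Itgam (1.40) were higher and Tmem119 (-2.17) and P2ry12 (-1.41) were lower, and the summed level overlapped between Sham (9.58 to 14.3) and TBI (10.1 to 12.7). Neuronal genes were lower for 3 of 7 and oligodendrocyte genes for 3 of 7. Their part in the member values was not tested.

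The other astrocyte genes were grouped into 9 lists. Of 10 pan-reactive astrocyte genes, 7 were higher in TBI than in Sham and none lower, where 2.93% of all probes were called higher and 6.49% lower. The list median was 3.12, or 2.86 with Osmr held at its lower bound. Beyond the secreted proteins Lcn2 and Serpina3n (7.36 and 7.13), the list held the small heat shock gene Hspb1 (4.84, adjusted p = 0.00399), the metalloproteinase inhibitor Timp1 (3.88), the asparaginase gene Aspg (3.23), the sphingosine phosphate receptor S1pr3 (2.49) and the oncostatin M receptor Osmr, which was at least 2.49-fold higher because no Sham array was above background. Cxcl10 (2.03, adjusted p = 0.178), Steap4 and Cp were not called.

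Of 8 genes of the A1 list of reactive astrocytes, Gbp2 (1.73) and C3 (1.36) were higher in TBI than in Sham, with a list median of 0.57. Of 11 genes of the A2 list, 4 were higher, led by the lipopolysaccharide co-receptor Cd14 (3.09), Emp1 (2.22) and S100a10 (1.57), with a median of 1.29, or 1.05 with Cd109 at its bound. Cd14 is also a gene of myeloid cells. Among 12 signalling genes of gliosis only Stat3 was called (1.86, adjusted p = 0.00895). Of 7 hyaluronan and CD44 partners, the CD44 ligand Spp1 (6.24) and the proteoglycan Vcan (1.08) were higher.

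Genes that define astrocytes at rest were not raised in TBI against Sham. Of 14 identity genes, none was higher, and Plpp3 (-1.67, adjusted p = 0.0081) and Mlc1 (-0.78), both astrocyte membrane proteins, were lower, with a median of -0.41. Of 11 transport and coupling genes, the glutamine transporter Slc38a3 was lower (-1.15), with a median of -0.70. The glutamate transporters Slc1a2 (0.22, adjusted p = 0.517) and Slc1a3 (0.26, adjusted p = 0.441) did not pass the test. None of 10 further filament and linker genes was called, and of 10 radial glia and progenitor genes only the Notch target Hes5 was (-3.60).

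**Figure D3:**
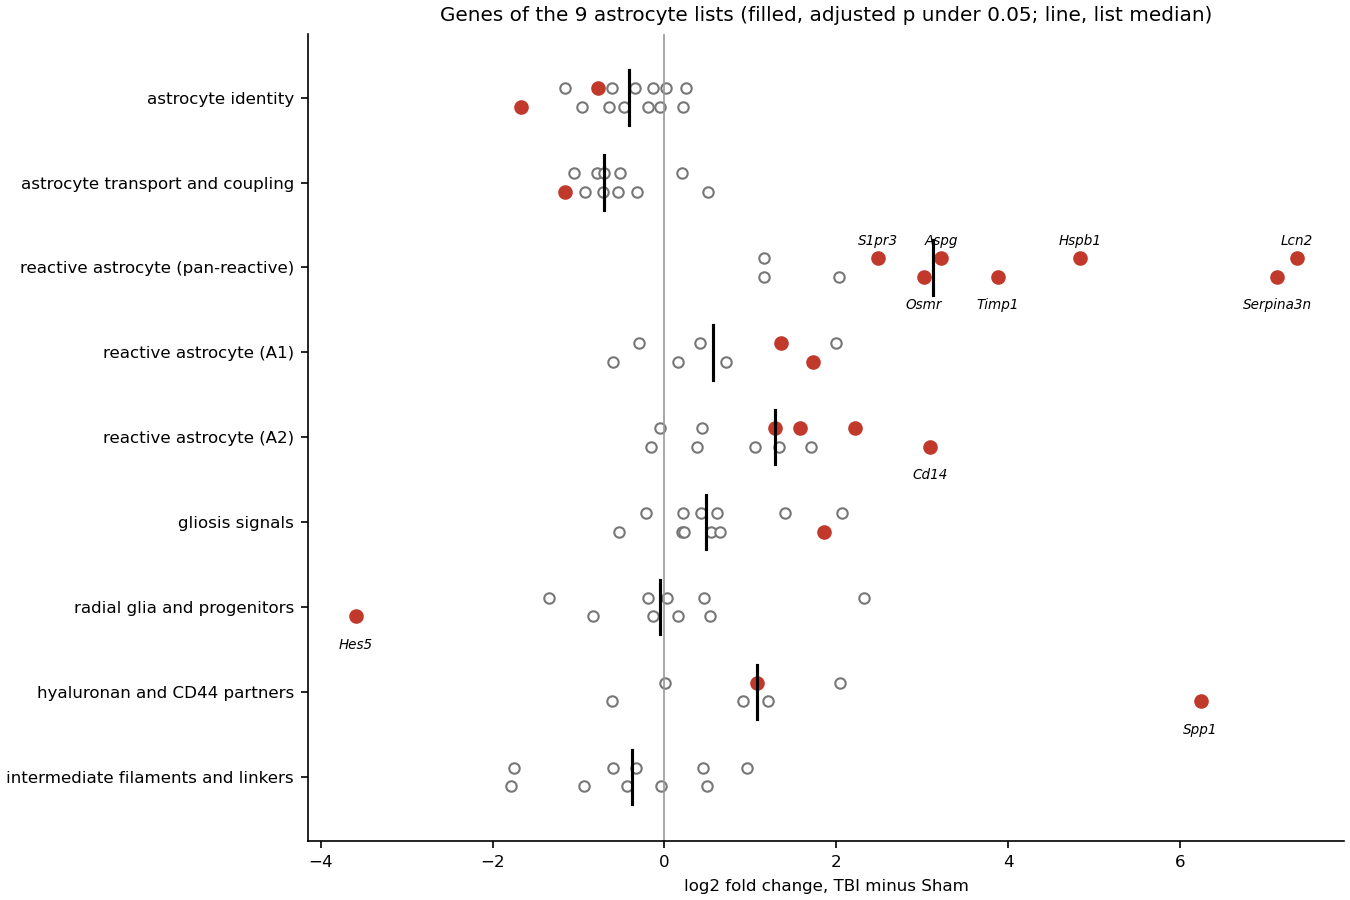
Log2 fold change in TBI against Sham of each tested gene in 9 astrocyte lists, 1 point per gene, filled where the limma adjusted p was under 0.05, with a black line at the list median. All 10 pan-reactive genes lay above 0 with a median of 3.12, while the identity and transport lists had medians of -0.41 and -0.70.

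In Sham against Naive no gene of the identity, transport, pan-reactive, A1 or radial glia list was called by limma, whereas 6.57% of all probes were called higher and 1.52% lower. The called genes were the cytokine gene Clcf1 (at least 3.11-fold), Fgf2 (at least 1.48-fold) and Tgfb1 (1.26) among signals, the CD44 linker Msn (1.43), and the filament genes Krt8 (2.71) and Synm (-0.68). Against Naive, TBI rats had 6 of 10 pan-reactive genes called, with Serpina3n at least 181-fold and S1pr3 at least 5.18-fold higher, and the signal genes Socs3 (at least 3.65-fold), Fgf2 (at least 2.27-fold), Stat3 (1.51) and Tgfb1 (1.47) were called of 12. The gap junction gene Gjb6 (-1.61) and the bicarbonate transporter Slc4a4 (-1.32) were lower.

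The calls in these comparisons rested on a small design. Naive 3 alone shared a slide with the TBI arrays, so differences of TBI with slide as a fixed block all rest on that array. TBI and Sham shared no slide, and with slide as a fixed block limma called none of the members in TBI against Sham, TBI against Naive or Sham against Naive, where 3, 4 and 1 had an unadjusted p under 0.05. The blocked differences for Cd44 were 3.02 against Sham (adjusted p = 0.401) and 3.42 against Naive (adjusted p = 0.105), and that of Gfap was 2.56 in TBI against Naive (adjusted p = 0.178).

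Gfap was higher again in every drug-treated group than in untreated injured rats. Its log2 signals were 3.38, 3.80 and 4.53 in TBI+PMI, 4.43, 4.39 and 4.96 in TBI+JM6, and 4.40 and 4.60 in TBI+E33 rats. All 8 lay above the highest TBI array, at 2.20. The difference from TBI was 2.69 (6.46-fold, adjusted p = 2.39e-05) for TBI+JM6, 2.0 (4.01-fold, adjusted p = 0.000298) for TBI+PMI and 2.60 (6.05-fold, adjusted p = 7.93e-05) for TBI+E33. These comparisons share the TBI arrays. Most probes were brighter on the arrays of drug-treated rats under this scaling: the median over all probes was 0.99 for TBI+JM6, 0.79 for TBI+PMI and 1.08 for TBI+E33, and 70.1%, 56.7% and 70.3% of all probes were called. Relative to that shift, Gfap was higher by 1.70, 1.21 and 1.52.

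Quantile normalization forces all arrays onto a common distribution. It removed the shift, and 27.2%, 19.2% and 20.4% of probes were then called. Gfap remained higher, by 2.28 for TBI+JM6 (adjusted p = 0.0018), 1.66 for TBI+PMI (adjusted p = 0.0115) and 2.14 for TBI+E33 (adjusted p = 0.006). Of the members, 5, 3 and 4 were called higher in the 3 comparisons under the percentile scaling and 2, 1 and 2 under quantile normalization. The arrays of the groups did not overlap for 5, 4 and 8 members under the percentile scaling, where 73.6%, 62.7% and 85.3% of probes did not. In each comparison, 3 of the 10 members lay above the median of all probes. The drug and the scanning session cannot be told apart under either scaling.

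Glul was the other member called under both scalings in TBI+JM6. Its log2 signals were 0.81, 0.94 and -0.08 in TBI, 1.94, 1.68 and 1.36 in TBI+PMI and 1.87, 2.21 and 2.41 in TBI+JM6 rats. In TBI+E33 it was 2.69 on 1 array, the spot of the other having been flagged as an outlier and left out. No treated array overlapped the TBI arrays. The difference was 1.61 for TBI+JM6 (adjusted p = 0.000883), or 1.01 under quantile normalization (adjusted p = 0.0152) and 1.10 when scaled to control spots (adjusted p = 0.0575). For TBI+PMI it was 1.11 (adjusted p = 0.0109), or 0.63 (adjusted p = 0.104), and for the single TBI+E33 array it was 2.14, or 1.46. The model also called that last difference under both scalings, with the lone array assumed to vary like the other groups. The TBI+PMI call was lost without TBI 3 (0.79, adjusted p = 0.0508) and without the arrays of high choroid plexus signal (0.96, adjusted p = 0.0506).

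**Figure D4:**
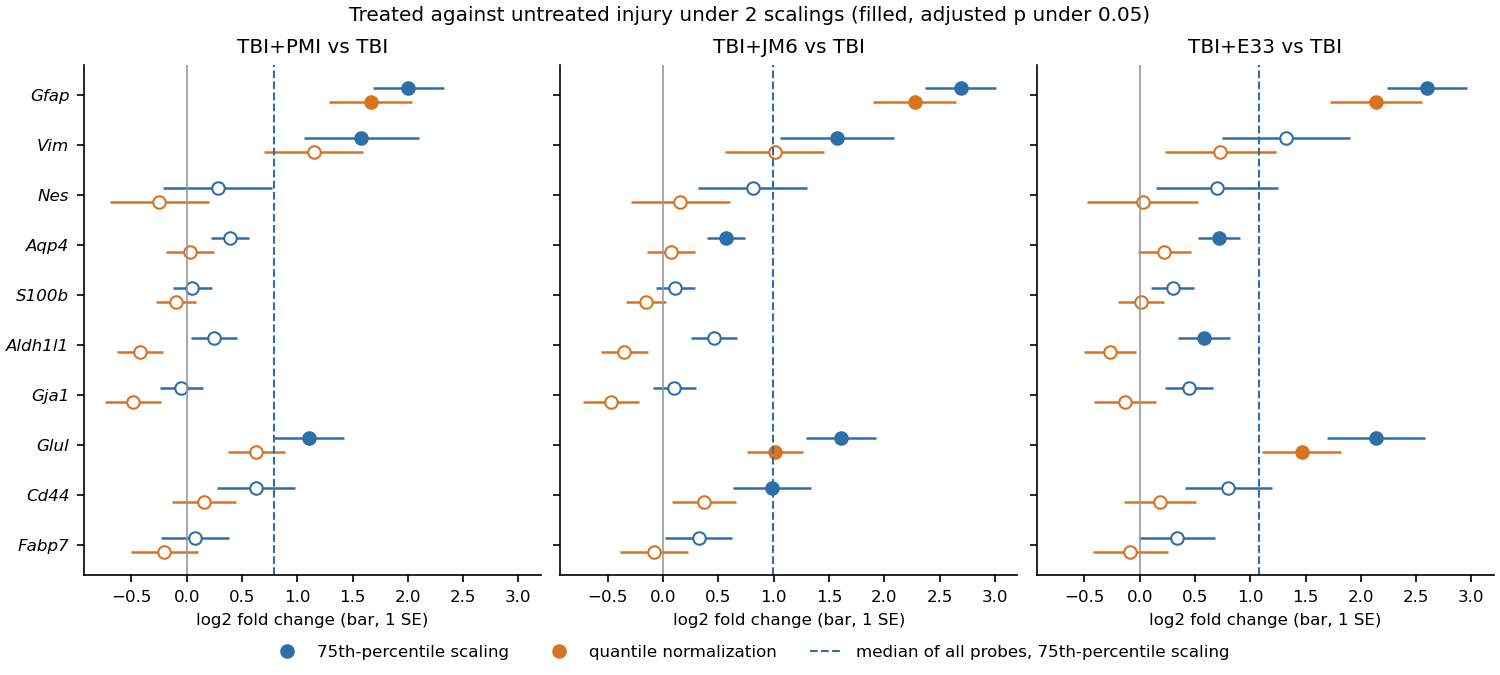
Log2 fold change of the brightest probe of the 10 members in TBI+JM6, TBI+PMI and TBI+E33 against TBI under percentile scaling and quantile normalization, with bars of 1 SE and filled points where the limma adjusted p was under 0.05. Gfap stayed above 1.6 in all 3 comparisons under both scalings, whereas Aqp4 dropped from 0.57 to 0.07 in TBI+JM6 and Aldh1l1 from 0.58 to -0.27 in TBI+E33.

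For the other members the calls depended on the scaling. Vim read 2.55, 3.03 and 2.22 in TBI+PMI, 2.47, 2.54 and 2.75 in TBI+JM6 and 2.21 and 2.47 in TBI+E33 rats, all above the TBI arrays. It was called for TBI+JM6 (1.57, adjusted p = 0.0165) and TBI+PMI (1.58, adjusted p = 0.02), but under quantile normalization it was 1.01 (adjusted p = 0.112) and 1.15 (adjusted p = 0.0889). Without TBI 1 the differences were 1.26 (adjusted p = 0.07) and 1.27 (adjusted p = 0.0806), and the calls were also lost without TBI+JM6 3 (1.49) and TBI+PMI 2 (1.36). For TBI+E33 the difference was 1.32 (adjusted p = 0.0558), or 1.54 without TBI 2 (adjusted p = 0.0474). By its brightest probe, Nes lay between 0.08 and 1.21 in TBI+JM6 rats and between -0.09 and 0.48 in TBI+PMI rats. It read 0.77 and 0.38 in TBI+E33 rats. These values were within or just above the TBI range, and this probe was not called. Without TBI 2 it was called for TBI+JM6 (1.33, adjusted p = 0.0217) and TBI+E33 (1.23, adjusted p = 0.0447). The less bright Nes probe had mean log2 signals of -2.16 in TBI, -1.65 in TBI+PMI, -0.61 in TBI+JM6 and -0.61 in TBI+E33 rats. Its signals on the TBI arrays ran from -3.76 to -0.91.

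The brightest Aqp4 probe was called for TBI+JM6 (0.57, adjusted p = 0.0106) and TBI+E33 (0.72, adjusted p = 0.00521), and under quantile normalization these differences were 0.07 and 0.22 (adjusted p = 0.834 and 0.543), while with the 75th percentile over all probes they were -0.22 and -0.11. The other 2 Aqp4 probes rose more, by 1.42 and 1.72 for TBI+JM6, 1.11 and 1.42 for TBI+PMI and 1.45 and 1.81 for TBI+E33, and 1 of them was called under quantile normalization in TBI+JM6 (0.59, adjusted p = 0.042). Aldh1l1 was called for TBI+E33 (0.58, adjusted p = 0.0396), and its direction reversed to -0.27 under quantile normalization and to -0.25 with the percentile taken over all probes. That call was also lost without TBI 1 (0.62), TBI 3 (0.48) or either TBI+E33 array (0.64 and 0.53). By their brightest probe, S100b, Gja1 and Fabp7 were not called against TBI in any drug group under the main percentile scaling or quantile normalization. With the percentile over all probes, the bright S100b probe was lower in TBI+JM6 (-0.68), TBI+PMI (-0.60) and TBI+E33 (-0.53). Under that scaling Gja1 was lower in TBI+JM6 and TBI+PMI (-0.69 in both). Under the main scaling, the dim S100b probe had mean log2 signals of -4.36 in TBI, -4.11 in TBI+PMI, -2.96 in TBI+JM6 and -2.74 in TBI+E33 rats.

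Cd44 read 1.52, 1.45 and 0.51 in TBI+PMI, 1.07, 1.54 and 1.95 in TBI+JM6, and 1.24 and 1.43 in TBI+E33 rats. TBI+PMI and TBI+JM6 overlapped the TBI arrays, and both TBI+E33 arrays lay above the highest of them, at 1.08. For TBI+JM6 it was called at 0.99 (adjusted p = 0.0239), which was -0.01 relative to the median of all probes and 0.37 under quantile normalization (adjusted p = 0.359). It was lost without TBI 1 (0.59), TBI+JM6 2 (0.98) or TBI+JM6 3 (0.77), and the uncalled differences for TBI+PMI (0.63) and TBI+E33 (0.80) passed without TBI+PMI 3 (0.95) and TBI 2 (1.07). The study chose Cd44 for a list of JM6-affected genes from these rats, so this value is not independent of that choice. The weak upstream probe A_64_P130995 was well above background on no Naive, Sham or TBI array and on 2 of 3 TBI+PMI, 3 of 3 TBI+JM6 and 2 of 2 TBI+E33 arrays. It entered the tests through TBI+JM6 and TBI+E33 alone, as did A_64_P280765. The signal of A_64_P130995 was at least 1.59-fold higher in TBI+PMI, 2.77-fold higher in TBI+JM6 and 3.75-fold higher in TBI+E33 than in TBI. A_64_P280765, detected on 1 of 3 TBI and 1 of 3 TBI+PMI arrays, had mean log2 signals of -6.0 in both groups, -4.62 in TBI+JM6 and -4.76 in TBI+E33 rats, and its direction against TBI turned negative under quantile normalization (-1.60, -0.53 and -0.99 for TBI+PMI, TBI+JM6 and TBI+E33). Near-background signals on most of the TBI and TBI+PMI arrays leave these differences uninterpreted. The fourth probe, A_64_P130999, was above background on Sham 1 and TBI+E33 2 alone and was not tested. The summed level of leukocyte markers ran from 6.83 to 14.1 in TBI+PMI rats, from 11.2 to 13.6 in TBI+JM6 rats and from 8.86 to 14.6 in TBI+E33 rats, and their part in the Cd44 values was not tested.

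**Figure D5:**
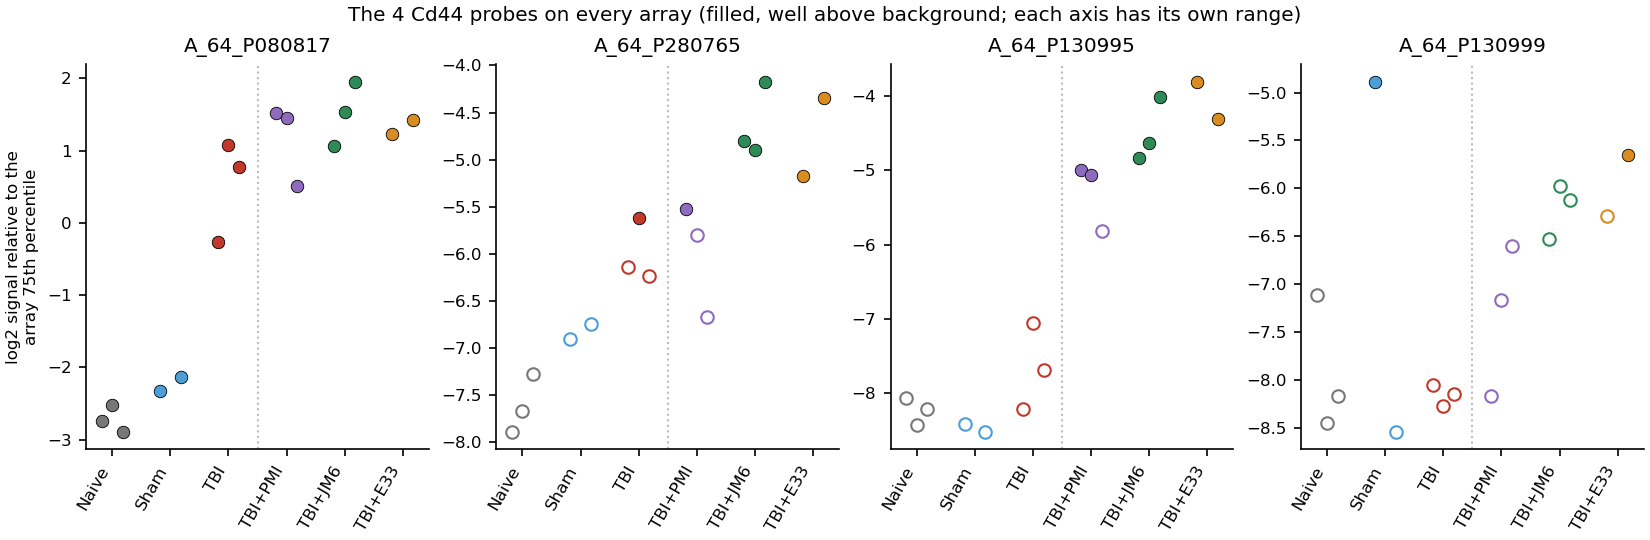
Log2 signal of the 4 Cd44 probes on all 16 arrays by group, filled where the probe was well above background and open where it was not; each panel has its own vertical range and the dotted line separates the 2 scanning sessions. The bright probe A_64_P080817 separated injured from uninjured rats, and A_64_P130995 was above background only on arrays of drug-treated rats.

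Under percentile scaling, 5, 3 and 8 of 14 identity genes were called higher in TBI+JM6, TBI+PMI and TBI+E33 than in TBI, where 69.9%, 56.7% and 70.2% of all probes were. Under quantile normalization no identity gene was called higher, where 13.9%, 9.96% and 10.4% of all probes were called higher and 13.3%, 9.21% and 10% lower. The identity list had medians of 0.33, 0.19 and 0.59, below those of all probes (0.99, 0.79 and 1.08). Pan-reactive genes had medians of 1.09, 1.01 and 1.15, and 2, 1 and 2 of 10 were called. The signalling list had medians of 1.72, 1.45 and 1.78 and was called higher for 11 of 12 genes in each drug group, and under quantile normalization for 4, 3 and 3 of 12, with 2, 1 and 1 lower. Those higher under both scalings in each drug group were the endothelin receptor gene Ednrb (1.46, 1.46 and 1.30 under quantile normalization), Stat3 (1.02, 0.89 and 0.85) and Tgfb1 (0.78, 0.56 and 0.63). Within this list, Lif was above background on all 8 arrays of drug-treated rats and on no other array. Il6st was so on 1 TBI+JM6 and 2 TBI+E33 arrays alone. Both genes therefore entered the tests through drug groups only. Il6st counts among the genes called in TBI+PMI, although no TBI+PMI or TBI array detected it. The potassium channel gene Kcnj10 was above background on all 8 arrays of drug-treated rats and on no other array, so it entered the tests through those groups alone. Its signal was at least 2.32-fold, 2.06-fold and 4.46-fold higher than in TBI. Gjb6 was lower in TBI+JM6 (-1.35) and TBI+PMI (-1.49) under quantile normalization.

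The 3 drug groups were scanned in 1 session and could be compared with each other, although TBI+PMI and TBI+E33 shared no slide. No member was called in any of the 3 comparisons by limma, beside 0.0131% of all probes in TBI+JM6 against TBI+PMI, 0.0175% in TBI+JM6 against TBI+E33 and 0.11% in TBI+PMI against TBI+E33. At an unadjusted p under 0.05 the counts were 0, 0 and 2 members, and by the methods' t-test at its own threshold none was called. Gfap was higher in TBI+JM6 than in TBI+PMI by 0.69 (95% interval -0.01 to 1.39), differed by 0.09 between TBI+JM6 and TBI+E33 (-0.69 to 0.88) and was lower in TBI+PMI than in TBI+E33 by -0.59 (-1.37 to 0.19). Within slides, Gfap differed by 0.52 between TBI+JM6 and TBI+PMI and by 0.18 between TBI+JM6 and TBI+E33. The 2 members with an unadjusted p under 0.05 were Glul (-1.03, interval -2.0 to -0.06, adjusted p = 0.306) and Gja1 (-0.49, -0.97 to -0.02, adjusted p = 0.317), both lower in TBI+PMI than in TBI+E33. For Glul the TBI+E33 side was 1 array, whose spread was taken from the other groups.

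The genes whose signal ran closest to Gfap over the 8 Naive, Sham and TBI arrays, among 14330 probes, were Eif4g2 (Pearson r 0.97), Acbd6 (0.97), Rab8b (0.96), Lfng (0.96) and Tbxas1 (0.95). Those closest to Aldh1l1 were Slc40a1 (0.99), Gcdh (0.99), Dync1li2 (0.99), Rhbdd2 (0.98) and Tmem121 (0.97). Cd44, Vim and Nes had r of 0.78, 0.75 and 0.68 with Gfap, and Aldh1l1, Gja1 and S100b had r of -0.74, -0.71 and -0.57. The arrays share slides and groups, and these coefficients are a description of them.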

How the data were processed

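Expression was measured on single-colour Agilent rat arrays. Per the file headers, the spot intensity in the deposited scanner output was background subtracted and detrended within its array by Agilent Feature Extraction and not normalized between arrays, and the detection, saturation and outlier flags are that program's. The matrix deposited by the authors holds a ratio to the 75th percentile on a linear scale with 1 common distribution, and served as an alternative. Probe positions were those of rn4.

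Spots flagged as outliers were left out, spots of a probe were averaged, and the result was scaled to the array's own 75th percentile over detected probes before taking log2. Testing covered the 22827 of 30367 probes that at least 1 group detected throughout. A limma model of group means was fitted over all 16 arrays, leaving 10 residual degrees of freedom. Where a group had no detected array, a lower bound of the fold change is given, from the lowest detected signal on each array. The number of arrays limits the precision. Replicates were different rats.

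The members and the gene lists were chosen with earlier results of these data known. Apart from the members, at most the 3 called genes of largest change per list and comparison were to be named, with others given for what they are. Hepacam, Tgfbr2, Eomes, Mki67 and Pifo were not found by symbol on the array, and Ggta1, B3gnt5, Il6, Has2, Has3, Hmmr, Mpo and Kcnj13 were too dim to test. Plpp3 and Cdk1 were listed under older symbols. The model was tested on simulated data. The alternatives were normexp background correction, other scalings, filters and probe rules, the compared groups alone, slide or replicate as a block, the methods' t-test and leaving out arrays. Leaving out the arrays of high choroid plexus signal and averaging all probes of a gene were chosen after seeing the data. R 4.3.3, limma 3.58.1 and Python were used.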

Additional observations from a re-analysis of the deposited data

How the results depend on the processing

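Of 1253 recomputed member fold changes in the 6 comparisons with control or TBI rats, 1102 kept their direction where called and their side of the threshold, 106 lost a call, 35 gained one and 10 reversed. With the 75th percentile over all probes, TBI+JM6 against TBI became -0.22 for Aqp4, -0.68 for S100b and -0.69 for Gja1, TBI+PMI became -0.60 for S100b, and TBI+E33 became -0.11 for Aqp4, -0.53 for S100b and -0.25 for Aldh1l1. Aldh1l1 in TBI+E33 also became -0.27 with quantile normalization, -0.10 when scaled to E1A control spots and -0.26 in the authors' matrix. The cause was not tested.

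The number of members called in TBI against Sham (2) was 0 with normexp, with the compared groups alone, with slide as a fixed block, with the methods' t-test after Benjamini-Hochberg adjustment and without the arrays of high choroid plexus signal, and 4 with slide as a random block. In TBI against Naive (5) it was 2 with normexp, 1 with the groups alone, and 0 with slide as a fixed block or the adjusted t-test, and in Sham against Naive (1) it was 0 under these 4. At an unadjusted p under 0.05, 1 to 7 members passed wherever one of these counts was 0. Fewer arrays entered the fits on the groups alone. For TBI+JM6 (5) it was 3 with normexp, 2 with quantile normalization, 1 with E1A spots and 2 in the authors' matrix. For TBI+PMI (3) it was 1 under each of these and 5 when a gene's probes were averaged. For TBI+E33 (4) it was 2 with normexp, quantile normalization, the matrix and the adjusted t-test, and 1 with E1A spots.

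With 1 array left out, the counts ranged from 1 to 4 in TBI against Sham, 2 to 5 in TBI against Naive, 0 to 2 in Sham against Naive (0 without Sham 1), 3 to 6 for TBI+JM6, 2 to 4 for TBI+PMI and 2 to 7 for TBI+E33. No member was called between drug groups under any alternative. Replicate numbers were shared between groups, and the deviations of same-numbered arrays had correlations of -0.185 to 0.182. In TBI against Sham each pair correlated best with its own number (0.182 and 0.156), and in Sham against Naive neither did (-0.032 and -0.015). With so few arrays per group, these values cannot decide whether same-numbered arrays shared more than a number. With the replicate block, limma called 2, 5, 1, 6, 3 and 5 members in the same order. The groups of 2 arrays and the weak upstream Cd44 probes limit what signal over background allows.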
